A study of Mus musculus with 9 samples.

Results

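The genes described here are the ephrins, Eph receptors, semaphorins, plexins, netrins, UNC5 receptors, Slits and Robo receptors, the 4 classic ligand and receptor systems of axon guidance. They were taken as the protein-coding genes whose mouse symbols carry these family names (Efna, Efnb, Epha, Ephb, Sema, Plxn, Ntn, Unc5, Slit and Robo), without the unrelated Slitrk genes, and with 10 or more counts in at least 3 of 9 libraries. Of 67 matching symbols, 64 met that count among 18003 genes that did, 33 encoding ligands and 29 encoding receptors. The other 2, Unc50 and Unc5cl, match the letters but encode no netrin receptor. Epha8, Ntn5 and Robo3 fell under the count.

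RNA was sequenced from the cochlear ducts of mouse embryos at embryonic day 14.5 (E14.5), 3 WT (Prdm16 +/+), 3 heterozygote (cGT/+) and 3 null (cGT/cGT). Each library came from both ducts of a single embryo, and the genotypes were littermates on the FVB/NJ background. The cGT allele is a gene trap carried in every cell of the embryo, so the duct is not the only tissue without the protein. PRDM16, a zinc finger regulator of transcription, is present in Kölliker's organ, the epithelium on the inner side of the developing organ of Corti.

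Ephrins are membrane-bound ligands that meet Eph receptor tyrosine kinases on a neighbouring cell and usually repel it, with signals passing into both cells. Semaphorins, secreted or membrane-bound, act through plexins, often with a neuropilin as co-receptor. Netrins attract through DCC and repel through UNC5 receptors, and Slits repel through Robo receptors. In the inner ear these systems are known for steering spiral ganglion neurites towards hair cells, and in epithelia the same proteins set boundaries and shape tubes.

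Total counts were 24095322 to 30819118 per library. Values are CPM, counts scaled to a common library size with TMM factors. Prdm16 was 184 to 225 CPM in WT, 123 to 151 CPM in heterozygote and 19.1 to 27.4 CPM in null libraries, with no overlap between genotypes. Summed epithelial markers were highest in Null 2, at 2518 CPM, and 1771 to 2001 CPM in the other libraries. The 12 neuronal markers summed to 61.43 to 74.13 CPM in WT, 42.57 to 51.48 CPM in heterozygote and 31.65 to 70.83 CPM in null libraries. Of these, Dcx was the highest at 14.4 to 38.7 CPM, while Neurod1 did not exceed 0.146 CPM. WT 1, WT 2 and Null 3 stood apart from the rest. Their 10 mesenchyme markers summed to 589.5, 1088 and 1473 CPM against 36.82 to 114.6 CPM in the other 6 libraries, and their 8 endothelial markers to 96.85, 79.24 and 59.89 CPM against 4.444 to 8.546 CPM. Values without these libraries are given below.

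All 14 families, with semaphorins split by class and ephrins and Eph receptors into A and B, were expressed in the WT duct. Between genes, levels were compared as CPM per kb of exon, of which 29 members had 10 to 100, 24 had 1 to 10 and 11 had 0.1 to 1. In WT the 20 semaphorins of all classes summed to 256.6 ± 7.87 CPM per kb (SD, n = 3), the 13 Eph receptors to 227.2 ± 4.07, the 9 plexins to 204.0 ± 1.84 and the 8 ephrins to 200.2 ± 3.30. Ligands summed to 508.8 ± 8.66 and receptors to 526.2 ± 4.27 CPM per kb.

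In 7 of the 13 families with more than 1 gene, a single member made up 68.8% or more of the level per kb. Slit3 made up 93.2% of the summed Slit level per kb in WT, Ntn1 (netrin-1) 93.1% of the netrins, and Unc5b, a netrin-1 receptor, 88.6% of the UNC5 receptors. Robo1 held 78.7% of the Robo level and Sema3f, a secreted ligand of neuropilin-2, 76.3% of the class 3 semaphorins. Sema5b held 88.2% of class 5 and Sema6a 68.8% of class 6. Sema7a, a lipid-anchored semaphorin, is the only gene of its class. In the other 6 families the top member held less, from 33.1% (Sema4c in class 4) to 53.2% (Efnb2 among the B-type ephrins). These shares depend on exon length, taken over all annotated exons of a gene merged. That was 25433 bases for Slit2 and 6067 for Slit3. In CPM, without length, Slit3 was at 178.9 and Slit2 at 50.35 in WT, and Sema5b at 140.2 and Sema5a at 49.66.

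The highest single level was that of Plxnb2, a receptor of class 4 semaphorins, at 82.12 ± 1.01 CPM per kb in WT. Sema3f followed with 73.35 ± 3.63, and then Efnb2 (62.87 ± 3.06), which binds Eph-B receptors and EphA4. Unc5b (61.88 ± 2.71) and Efnb2 differed by less than their spread. Epha7 (51.90 ± 1.00) led the Eph-A receptors, Ephb4 (41.41 ± 2.43) the Eph-B receptors and Efna4 (28.16 ± 2.67) the A-type ephrins. Among class 4 semaphorins, Sema4c (24.27 ± 0.396), a ligand of plexin-B2, stood just above Sema4g (22.94 ± 0.423). The WT ranges of Ephb3, Ephb6 and Ephb1 overlapped from each to the next, as did those of Epha6, Epha5, Epha3 and Epha10 at the bottom of the Eph-A order.

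**Figure D1:**
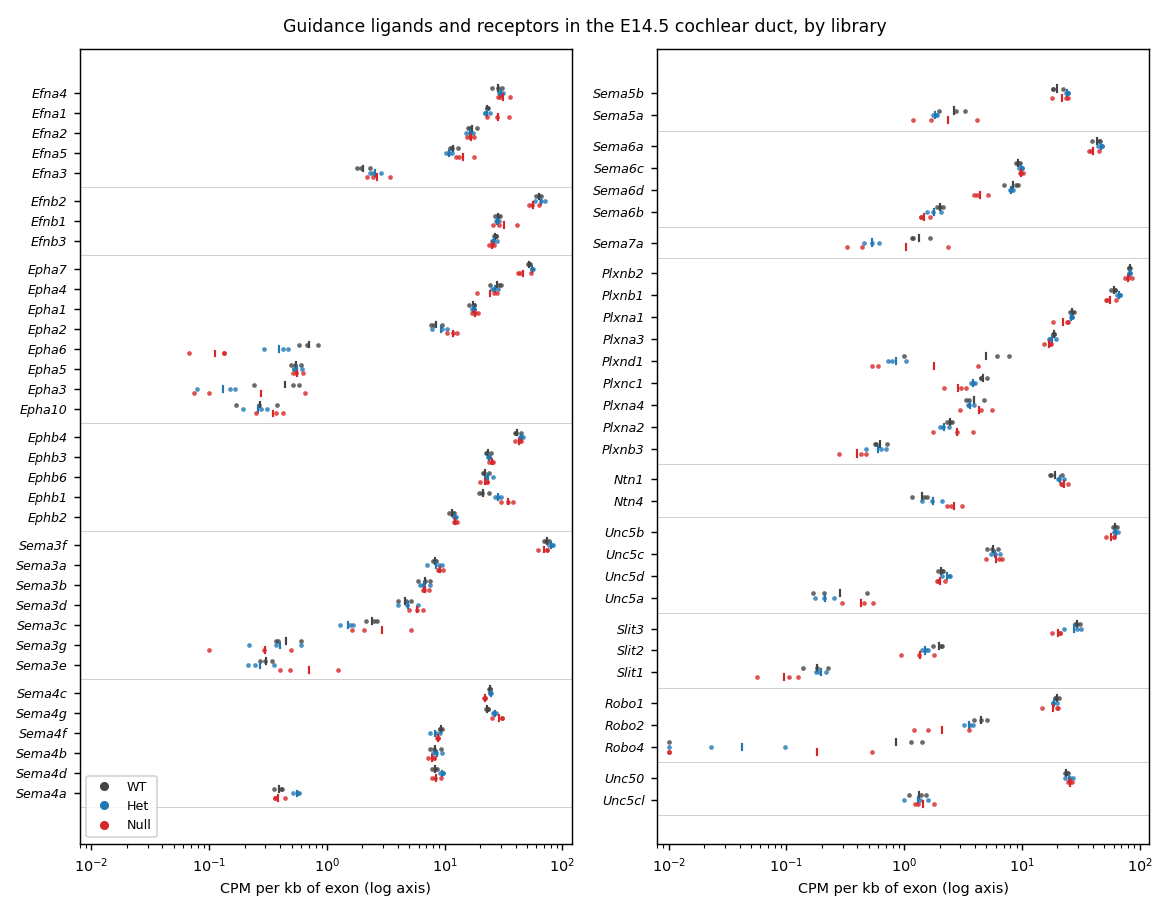
Each row is a gene and each point the level in 1 embryo, in CPM per kb of exon on a log axis, with WT in grey, heterozygote in blue and null in red; short vertical bars are means of 3 embryos, grey lines divide families, and the lowest Robo4 values are drawn near the left end of the axis. The genotypes lie close together in most rows, with Plxnb2 highest at 82.12 CPM per kb in WT, and the null points of Epha6, Sema6d and Slit3 lie to the left of both other genotypes.

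The loss of both Prdm16 alleles was examined first. A gene was called at an edgeR adjusted p-value under 0.05, adjusted over all 17168 genes tested, with an absolute log2 fold change over 0.5. Epha6, Sema6d and Slit3 were lower in null ducts and Ephb1 was higher. These are 3 of 64 members (4.69%) called lower, where 0.786% of all genes were, and 1 of 64 (1.56%) called higher, where 0.920% of all genes were. The unadjusted p was under 0.05 for 17 members (26.6%), 10 lower and 7 higher, against 12.2% of all genes; without WT 1, WT 2 and Null 3 it was under 0.05 for 10 of 63 (15.9%), 9 lower and 1 higher, against 6.59% of all genes. The null and WT values did not overlap for 21 members (32.8%), against 19.0% of all genes. The median log2 fold change of the members was -0.03, and that of all genes 0.01.

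Epha6 (ENSMUSG00000055540, mm10 chr16:59653483-60605531, minus strand) encodes a receptor of A-type ephrins. It measured 3.04, 3.61 and 4.48 CPM in WT, 2.49, 1.55 and 2.23 CPM in heterozygotes and 0.702, 0.355 and 0.713 CPM in null embryos. The 3 genotypes did not overlap, and the null mean was 15.9% of the WT mean. Null against WT gave a log2 fold change of -2.67 (SE 0.337, adjusted p = 0.00871), on 11 to 17 counts per null library and 82 to 132 per WT library. It was called in 5 of 6 fits that each left out an embryo (adjusted p = 0.063 without WT 2). In bulk RNA, fewer cells of a type and less RNA per cell cannot be told apart, here and for the genes below.

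Sema6d (ENSMUSG00000027200, mm10 chr2:124089969-124667770, plus strand) encodes a transmembrane semaphorin that binds plexin-A1. Its level was 98.2, 94.3 and 74.0 CPM in WT, 84.1, 88.1 and 85.1 CPM in heterozygotes and 54.4, 41.6 and 44.1 CPM in null embryos. Every null value lay below every WT and heterozygote value, while the heterozygotes lay inside the WT range. The log2 fold change was -0.93 between null and WT (SE 0.141, adjusted p = 0.0199) and -0.88 between null and heterozygote (SE 0.109, adjusted p = 0.0167), and these comparisons share the null libraries. The null against WT call was lost without WT 1, WT 2 or Null 2 (adjusted p = 0.116, 0.126 and 0.0675). The receptor Plxna1 was 230.1, 241.5 and 249.7 CPM in WT and 219.3, 167.4 and 225.2 CPM in null embryos, and its log2 fold change of -0.24 did not pass (adjusted p = 0.467).

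Slit3 (ENSMUSG00000056427, mm10 chr11:35121224-35708507, plus strand), the main Slit of the duct, measured 187.6, 170.7 and 178.5 CPM in WT, 191.7, 139.4 and 177.0 CPM in heterozygotes and 127.7, 109.9 and 128.9 CPM in null embryos. The null values lay below all others, at 68.3% of the WT mean. Its log2 fold change was -0.56 (SE 0.0845, adjusted p = 0.0203), close to the fold threshold, and of 6 fits that each left out an embryo 1 kept the call (without Null 3); the adjusted p reached 0.146 without WT 1. The other Slits gave log2 fold changes of -0.55 (Slit2, adjusted p = 0.347) and -0.91 (Slit1, adjusted p = 0.403). Both had unadjusted p-values under 0.05, so all 3 Slits had negative values and 1 was called. Slit2 varied with the null embryos, at -0.33 without Null 2 (adjusted p = 0.432) and -0.80 without Null 3 (adjusted p = 0.054).

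Ephb1 (ENSMUSG00000032537, mm10 chr9:101922128-102354693, minus strand), a receptor of B-type ephrins, had 137.9, 144.1 and 166.0 CPM in WT, 197.4, 210.8 and 187.7 CPM in heterozygotes and 268.2, 209.8 and 242.8 CPM in null embryos. WT lay below both other genotypes, which overlapped each other. The log2 fold change was 0.68 between null and WT (SE 0.114, adjusted p = 0.0292) and 0.41 between heterozygote and WT (SE 0.0707, adjusted p = 0.0582). The null against WT call was kept without Null 2 or Null 3 and lost without any of the other 4 embryos (adjusted p = 0.0518 to 0.172). It was the only Eph-B receptor to be called; the other 4 had log2 fold changes between null and WT of -0.02 to 0.09.

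To show where these genes start, the bases before the transcription start are given for Epha6, Sema6d and Ephb1, from RefSeq on GRCm38.p6, the build of the files. The sequences run 5′ to 3′ towards the gene, 250 bases each, with every CG dinucleotide in capitals. Slit3 is not shown because an exon of the gene lies in that window.
Epha6, chr16:60605532-60605781, minus strand: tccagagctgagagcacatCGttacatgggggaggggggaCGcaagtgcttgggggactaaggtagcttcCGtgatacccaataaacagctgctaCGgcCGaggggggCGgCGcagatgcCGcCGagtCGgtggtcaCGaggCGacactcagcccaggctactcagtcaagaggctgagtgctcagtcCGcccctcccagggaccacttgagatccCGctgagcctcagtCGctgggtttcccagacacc
Sema6d, chr2:124089719-124089968, plus strand: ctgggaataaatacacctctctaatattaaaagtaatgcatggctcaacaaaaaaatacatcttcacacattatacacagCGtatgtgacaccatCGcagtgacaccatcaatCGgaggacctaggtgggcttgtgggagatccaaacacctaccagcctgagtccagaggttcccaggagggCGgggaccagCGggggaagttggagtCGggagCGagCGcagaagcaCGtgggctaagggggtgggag
Ephb1, chr9:102354694-102354943, minus strand: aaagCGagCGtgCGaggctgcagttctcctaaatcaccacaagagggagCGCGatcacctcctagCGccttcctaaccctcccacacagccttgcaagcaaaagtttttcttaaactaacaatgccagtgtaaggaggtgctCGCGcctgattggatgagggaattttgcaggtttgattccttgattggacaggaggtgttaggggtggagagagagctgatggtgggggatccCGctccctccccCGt

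The Epha6 stretch holds 15 CG dinucleotides, that of Sema6d 9 and that of Ephb1 10. The median was 16 over 71 such stretches of 55 members in the table, and 6 over all 32851 in it. An exon of the antisense gene Gm9017 lies in the Epha6 stretch and an exon of the noncoding gene Gm26846 in that of Ephb1. AGATAA, the core of the GATA-like sequence bound by MECOM, a close relative of PRDM16, was searched on both strands. None of the stretches of the 4 called genes holds these letters, which occur in 3 of the members' 71 (4.23%) and in 9.99% of all.

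**Figure D2:**
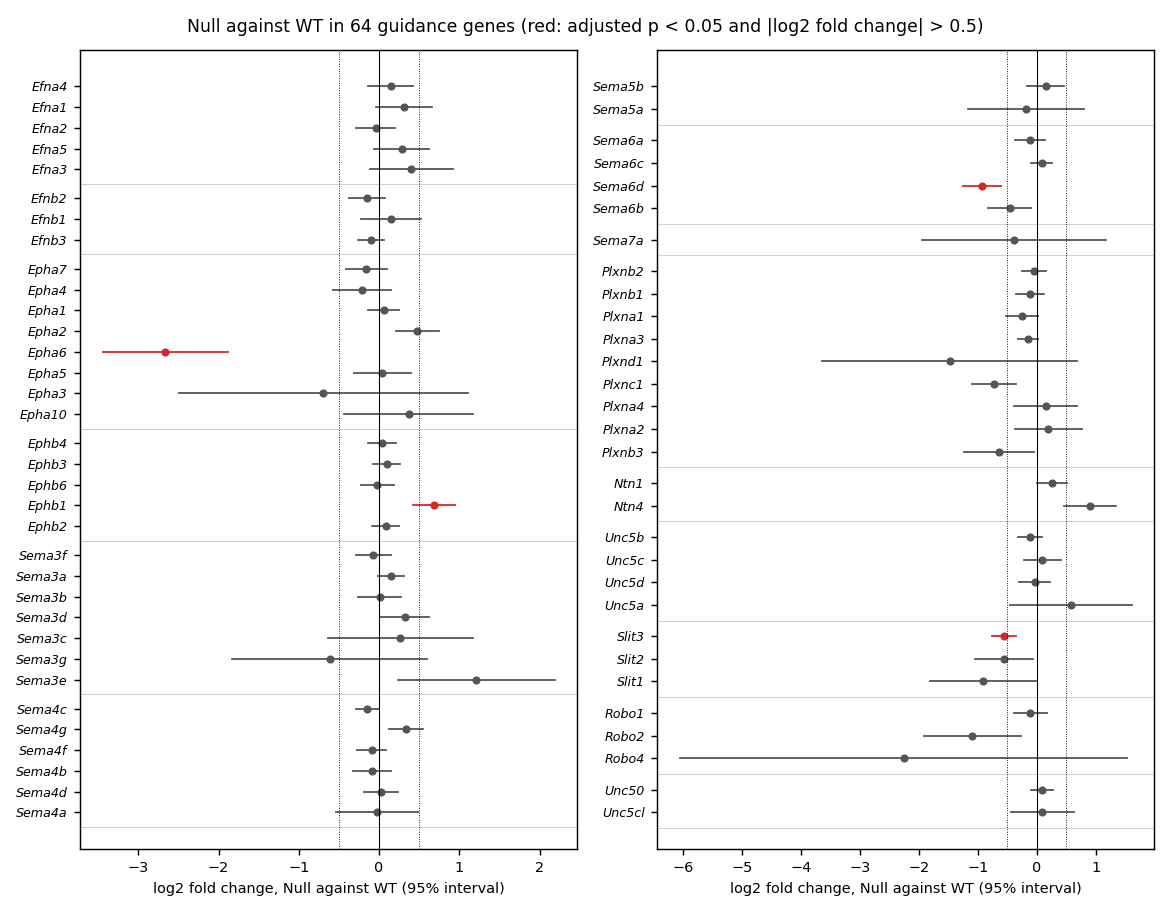
Points are log2 fold changes between null and WT for the 64 members and lines their 95% intervals, with called genes in red, dotted lines at the fold threshold of 0.5 and grey lines between families; the panels have different horizontal scales. The 4 red genes are Epha6 at -2.67, Sema6d at -0.93, Slit3 at -0.56 and Ephb1 at 0.68, and wide intervals mark genes such as Robo4 and Plxnd1 that vary within a genotype.

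The other 13 members with an unadjusted p under 0.05 did not pass the adjustment. Among ligands, Ntn4, a netrin of basement membranes, was 5.52, 5.88 and 4.38 CPM in WT and 9.37, 11.7 and 8.63 CPM in null embryos, without overlap. Its log2 fold change was 0.91 (SE 0.192, adjusted p = 0.0703), and it was called with DESeq2 (adjusted p = 0.00135). Ntn1 had a log2 fold change of 0.26 (adjusted p = 0.401), and its sign depended on the libraries that stood apart (-0.006 without them).

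Positive values were also found for Sema3e, the ligand of plexin-D1 (log2 fold change 1.21, adjusted p = 0.282), for Sema3d, another secreted semaphorin (0.32, adjusted p = 0.381), and for the transmembrane Sema4g (0.33, adjusted p = 0.161). Sema3e rested on Null 3, at 11.4 CPM against 4.50 and 3.71 CPM in the other null libraries, and its log2 fold change was 0.54 without Null 3 and 0.71 without WT 1, WT 2 and Null 3 together. Without those 3, Sema3d was at 0.52 (adjusted p = 0.812). Negative values were found for Sema6b (-0.46, adjusted p = 0.281), which signals through plexin-A4, and for Sema4c (-0.15, adjusted p = 0.391).

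Among receptors, Plxnc1, which binds Sema7a, was 37.7, 41.9 and 37.8 CPM in WT, 31.01, 32.2 and 33.5 CPM in heterozygotes and 28.0, 18.3 and 25.4 CPM in null embryos. The 3 genotypes did not overlap. Null against WT gave -0.72 on the log2 scale (SE 0.161, adjusted p = 0.0858), and -0.71 without the libraries that stood apart. Plxnc1 was called with DESeq2 (adjusted p = 0.00112), without a filter on low counts and in a fit of all 9 libraries (adjusted p = 0.0199). It was not called with limma-voom (adjusted p = 0.0642), the replicate block (adjusted p = 0.204) or a covariate of endothelial marker level (adjusted p = 0.132).

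Robo2, a Slit receptor, was 85.3, 76.4 and 67.0 CPM in WT and 27.0, 20.7 and 59.9 CPM in null embryos. Null 3 lay near WT and the other null libraries far below it. Its log2 fold change was -1.09 (adjusted p = 0.243); it was -1.68 without Null 3 and then called (adjusted p = 0.0025). Epha2, the receptor of ephrin-A1 in many epithelia, had a value of 0.47 (adjusted p = 0.114) that was 0.24 without the libraries that stood apart, and Plxnb3, a receptor of Sema5a, -0.65 (adjusted p = 0.363).

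**Figure D3:**
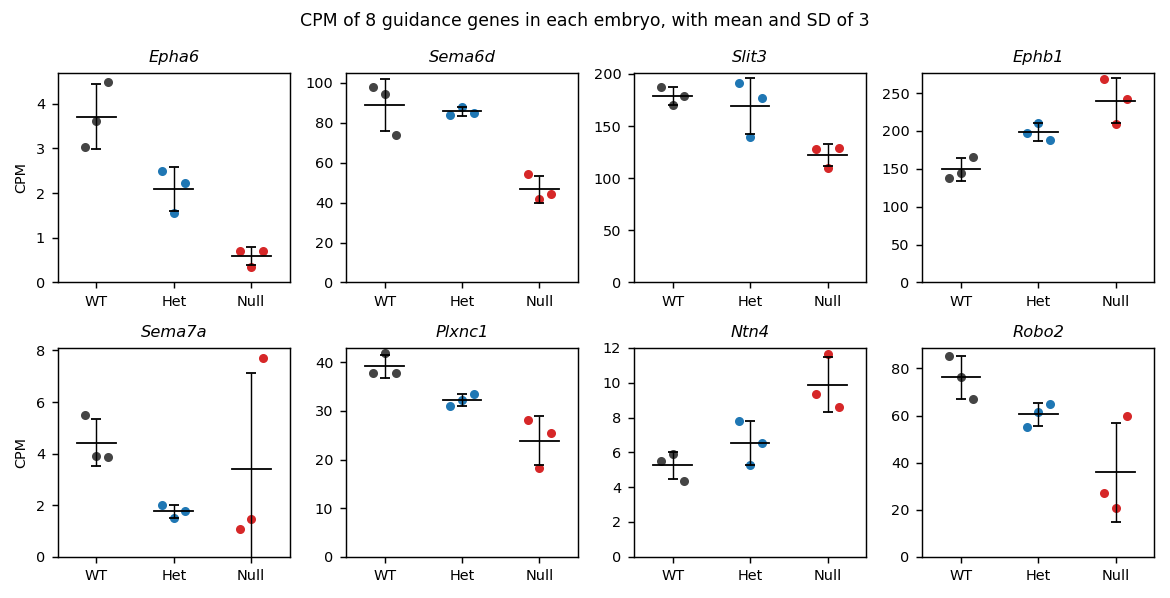
Each panel gives the CPM of a gene in the 9 embryos, with points for embryos, a horizontal bar for the mean and a vertical bar for the SD of 3, and every vertical axis starts at 0. Epha6 and Plxnc1 separate the 3 genotypes, whereas Robo2 and Sema7a in null ducts split between Null 3 (59.9 and 7.71 CPM) and the other 2 embryos.

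Of the most abundant member of each of the 14 families, Slit3 alone was called between null and WT. The log2 fold changes of Plxnb2, Sema3f, Efnb2, Unc5b, Epha7, Sema6a, Ephb4, Efna4, Sema5b, Robo1 and Sema4c lay between -0.16 and 0.15, that of Ntn1 was given above, and Sema7a was at -0.39 (adjusted p = 0.858). Of all 64 members, 48 (75%) had values within 0.5 of 0, against 84.6% of all genes. Summed over the family, null and WT libraries did not overlap for 4 of 14 families (28.6%), and the sums were not tested. The share for single genes was 19.0%, which is no baseline for sums over several genes. The Slits, nearly all Slit3 as given above, were at 30.38 to 33.18 CPM per kb in WT and 19.18 to 23.09 in null libraries, and the plexins at 202.6 to 206.1 and 167.9 to 197.8. The Eph-B receptors were at 117.1 to 121.3 in WT and 130.3 to 140.6 in null libraries, and the netrins at 18.93 to 23.0 and 24.43 to 27.17. The mean Eph-B sum went from 119.8 in WT to 136 in null libraries. Within it, the called Ephb1 went from 21.33 to 34.31 CPM per kb. Simulated data for this comparison showed how much could be missed: of 100 genes changed by a log2 fold change of 1, 59 were recovered.

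Markers of the duct's regions were compared in the same libraries. Tecta, which encodes a protein of the tectorial membrane, was 2602 to 3232 CPM in WT and 1393 to 1642 CPM in null ducts (log2 fold change -0.92, adjusted p = 0.0128), and Fgf10 had a log2 fold change of -0.58 (adjusted p = 0.0254). The 3 prosensory markers (Sox2, Jag1 and Hey2) had a median log2 fold change of 0.34, the 3 roof markers 0.38 and the 2 outer sulcus markers 0.39, and none of these 8 genes was called. The unadjusted p was under 0.05 for all 3 prosensory markers, all 3 roof markers and 1 outer sulcus marker (Lmx1a), each with a positive log2 fold change, against 12.2% of all genes. Their medians between heterozygote and WT were 0.30, 0.23 and 0.14. Of 10 neuronal markers tested between null and WT, 1 was called lower (0.786% of all genes were) and 0 higher (0.920%), 2 had an unadjusted p under 0.05 (12.2% of all genes did), and the median was -0.01. This was Stmn2, at 8.19 to 9.14 CPM in WT and 0.661 to 1.38 CPM in null ducts (adjusted p = 0.00343), whereas Nefm was highest in Null 3, at 16.6 CPM. Of 8 Schwann cell markers tested, 1 was called higher (0.920% of all genes were) and 0 lower (0.786%), with a median of 0.07. Among them S100b was 2.93 to 4.82 CPM in WT and 12.2 to 25.4 CPM in null ducts. The part of any of these markers in the values of the guidance genes was not tested.

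For the loss of 1 allele, 1 of 64 members (1.56%) was called lower, where 0.0984% of 17269 genes were, and 0 of 64 higher, where 0.0521% were. The unadjusted p was under 0.05 for 17 members (26.6%), 10 lower and 7 higher, against 13.1% of all genes, and 16 members (25%) did not overlap, against 18.0%. Of the 10 lower, 7 were high in WT 1, WT 2 and Null 3 (all but Epha6, Plxnc1 and Robo2), and of the 7 higher, 2 were low there (Sema3f and Sema5b). Without these libraries, with a single WT embryo left, 16 of 64 members (25%) had an unadjusted p under 0.05, 9 lower and 7 higher, against 8.56% of all genes. The gene called was Sema7a (ENSMUSG00000038264, mm10 chr9:57940112-57962865, plus strand), with 5.48, 3.92 and 3.87 CPM in WT, 2.01, 1.51 and 1.76 CPM in heterozygotes and 1.07, 1.45 and 7.71 CPM in null embryos. The heterozygotes lay below WT, and the null values lay on both sides of it. The log2 fold change between heterozygote and WT was -1.33 (SE 0.217, adjusted p = 0.0498). It was called in 1 of 6 fits that left out an embryo (without WT 3) and lost without any other (adjusted p = 0.0827 to 0.226). It was not called with limma-voom (adjusted p = 0.0714), with RLE scaling (adjusted p = 0.0504) or without the libraries that stood apart (log2 fold change -1.14, adjusted p = 0.148). In this comparison the mesenchyme markers had a median log2 fold change of -2.89, the endothelial markers -2.94, the neuronal markers -0.83 and the blood markers -1.82. The blood markers summed to 67.92 to 192.2 CPM in WT and 25.35 to 46.74 CPM in heterozygotes, without overlap. All 10 mesenchyme and 7 endothelial markers tested had an unadjusted p under 0.05, with 0 called, as did 4 of 5 blood markers, with 0 called, and 6 of 10 neuronal markers, of which Stmn2 was called lower (adjusted p = 0.0107). The part of these cell types in the heterozygote values was not tested.

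From 1 allele to none, 1 of 63 members (1.59%) was called lower, where 0.322% of 17067 genes were, and 0 of 63 higher, where 0.293% were. The gene was Sema6d, given above, and its call was lost without any of the 3 heterozygotes (adjusted p = 0.0961 to 0.119) and kept without Null 3 (-0.84, adjusted p = 0.0154), the only one of the libraries that stood apart to enter here. The unadjusted p was under 0.05 for 15 members (23.8%), against 11.4% of all genes, and 17 (27%) did not overlap, against 18.2%. Epha6 came next, with a log2 fold change of -1.83 (SE 0.363, adjusted p = 0.0891). Slit3 followed at -0.47 (SE 0.127, adjusted p = 0.21). Robo4 was too low to be tested here. Over all 64 members, the heterozygote mean lay between the WT and null means for 30 (46.9%), against 38.9% of all genes tested. Between null and heterozygote the mesenchyme markers had a median log2 fold change of 2.69, the endothelial 1.70, the blood 1.08 and the neuronal markers 0.45. The unadjusted p was under 0.05 for 3 of 10, 1 of 5, 3 of 4 and 6 of 10 of these, with 0 called. Of 3 Kölliker's organ markers, Prdm16 among them, 2 were called lower. The part of these cell types in the members' values was not tested.

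Plxnd1 and Robo4 followed the libraries that stood apart rather than the genotype. Plxnd1, the receptor of Sema3e in blood vessels, was 57.2, 44.6 and 7.29 CPM in WT, 5.70, 5.30 and 7.53 CPM in heterozygotes and 4.38, 3.91 and 31.1 CPM in null embryos. Robo4, an endothelial Robo, was 7.45 and 6.12 CPM in WT 1 and WT 2, 2.81 CPM in Null 3, 0 in WT 3 and at most 0.512 CPM elsewhere. Both were high in the same libraries as the endothelial markers.

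In all, 7 of 64 members (10.9%) were higher in WT 1, WT 2 and Null 3 than in every other library, where 4.57% of 17667 genes tested were, and 3 (4.69%) were lower, where 1.98% were. The higher ones were Plxnd1, Robo4, Epha3, Sema3c, Sema5a, Sema7a and Slit2, and the lower ones Ephb6, Sema3f and Sema5b. They were named after their values were seen. For Sema7a and Slit2, WT 3 also lay above every heterozygote, at 3.87 against at most 2.01 CPM and 44.9 against at most 40.4 CPM. Epha3, an Eph-A receptor, was 4.48 and 4.98 CPM in WT 1 and WT 2 and 5.70 CPM in Null 3, and 0.646 to 2.10 CPM in the others. The part of mesenchymal or endothelial RNA in these values was not tested.

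Without those libraries, WT was left with a single embryo, assumed to vary like the others. The log2 fold changes between null and WT were then -3.09 for Epha6 (adjusted p = 1.03e-05), -0.62 for Sema6d (adjusted p = 0.451), -0.58 for Slit3 (adjusted p = 0.571) and 0.53 for Ephb1 (adjusted p = 0.809). Of the 4 genes, Epha6 was still called. Ntn4 (1.27, adjusted p = 0.0299) and Robo2 (-1.49, adjusted p = 2.66e-06) were called as well.

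**Figure D4:**
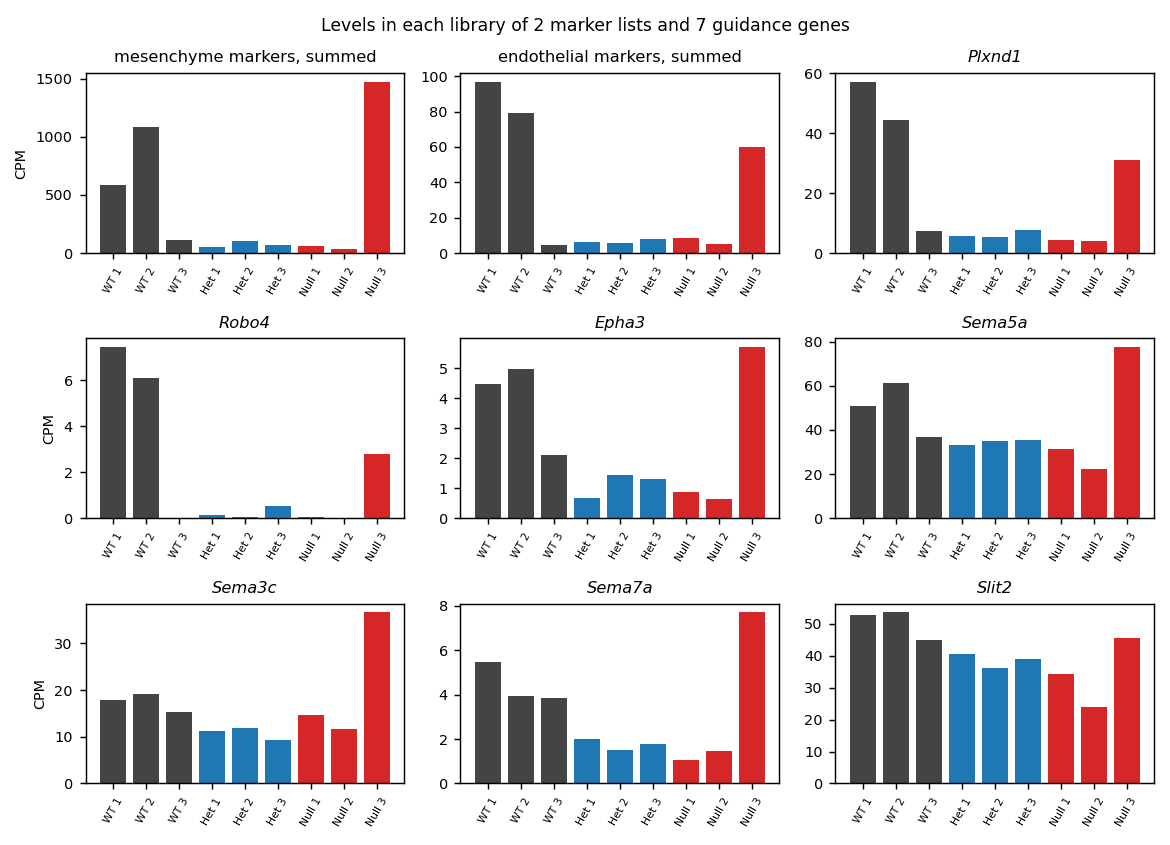
Bars give CPM in each of the 9 libraries for the summed mesenchyme and endothelial marker lists and for the 7 members that were higher in WT 1, WT 2 and Null 3 than in every other library, coloured by genotype as above. Plxnd1 and Robo4 sit with the low libraries in WT 3, at 7.29 and 0 CPM, beside a summed endothelial marker level of 4.444 CPM.

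The other genes of these pathways were followed in a list of partners (co-receptors, further ligands and adhesion molecules) and a list of intracellular effectors. Of 22 partners tested between null and WT, 2 were called lower (0.786% of all genes were) and 0 higher (0.920%), with a median log2 fold change of 0.01. The unadjusted p was under 0.05 for 7 of them (31.8%), against 12.2% of all genes. Ntng1, a membrane-anchored netrin-G that does not bind DCC, was 14.2, 15.5 and 14.2 CPM in WT, 9.28, 8.54 and 11.8 CPM in heterozygotes and 7.31, 5.39 and 7.88 CPM in null embryos. The 3 genotypes did not overlap, and the log2 fold change was -1.10 (SE 0.173, adjusted p = 0.0241), and -1.16 without the libraries that stood apart. Ntng1 was called in 2 of 6 fits that left out an embryo (without Null 2 or Null 3). Its call was kept with DESeq2 and limma-voom and lost with the replicate block (adjusted p = 0.101). L1cam, an axonal adhesion molecule that partners neuropilin-1, was 7.74, 8.12 and 8.28 CPM in WT and 4.75, 4.49 and 4.61 CPM in null embryos. Its log2 fold change was -0.81 (SE 0.151, adjusted p = 0.0455), and -0.84 without the libraries that stood apart. The L1cam call was lost whichever embryo was left out (adjusted p = 0.0599 to 0.235) and with the replicate block (adjusted p = 0.17). It was kept with DESeq2 and limma-voom.

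The netrin receptor gene Neo1 was measured at 309 to 386 CPM over the 9 libraries and Dcc at 0.353 to 2.18 CPM. Nrp2, the co-receptor of Sema3f, was 48.9, 73.9 and 33.9 CPM in WT and 11.3, 11.4 and 56.1 CPM in null embryos, again high in Null 3, with a log2 fold change of -1.001 (adjusted p = 0.587).

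Of 45 effectors tested between null and WT, 0 were called by edgeR, and 10 (22.2%) had an unadjusted p under 0.05, against 12.2% of all genes. Srgap1, a Robo-bound regulator of Cdc42, came nearest at -0.57 (adjusted p = 0.057). Between heterozygote and WT, 1 of 44 effectors was called lower, where 0.0984% of all genes were, and 12 (27.3%) had an unadjusted p under 0.05, against 13.1%. This was Pak3, a kinase downstream of Rac and Cdc42, with 16.0, 14.4 and 17.5 CPM in WT, 9.32, 10.2 and 9.66 CPM in heterozygotes and 8.22, 5.75 and 17.6 CPM in null embryos. The heterozygotes lay below WT and the null values spread across both. Its log2 fold change was -0.72 (SE 0.106, adjusted p = 0.0453), and -0.85 without the libraries that stood apart. It was called in 1 of 6 fits that left out an embryo (without WT 3, with adjusted p = 0.0704 to 0.216 in the other 5). The call was lost with limma-voom (adjusted p = 0.0533) and in a fit of all 9 libraries (adjusted p = 0.784). It was kept with DESeq2, RLE scaling, either other filter and the replicate block. No partner was called between heterozygote and WT, where 9 of 22 (40.9%) had an unadjusted p under 0.05, against 13.1% of all genes. Neither list had a call between null and heterozygote in edgeR, where 5 of 22 partners (22.7%) and 6 of 45 effectors (13.3%) had an unadjusted p under 0.05, against 11.4% of all genes.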

How the data were processed

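The authors deposited unnormalized whole-number counts for each Ensembl gene. They sequenced single reads of 50 bases. The submitters' processing notes name cutadapt 1.13, STAR, HTSeq 0.6.1p1, DESeq2 and mm10, while the strand setting and annotation release are not given in the sources used here, so reads of overlapping genes on opposite strands may be shared. 15 members share exon bases with another gene, among them Epha1 (236 bases with Zyx). Symbols, positions and exon lengths came from GENCODE M21, which matched 54165 of 54232 genes.

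Genotypes were compared pairwise, on the 6 libraries concerned, with edgeR 4.0.16 (R 4.3.3), TMM scaling, filterByExpr (minimum count 10), the quasi-likelihood test and Benjamini-Hochberg adjustment over all genes. Calls needed an adjusted p under 0.05 and a log2 fold change above 0.5 in either direction. The procedure was tested on simulated data. An exact permutation test of 3 against 3 cannot give a two-sided p under 0.1, so none is printed. Intervals of fold changes are 95% intervals. Libraries are separate embryos, and no pair within a genotype agreed within sampling noise. A count of 3 corresponded to 0.09734 to 0.1245 CPM, for counting error only.

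Genes named are the members called in any comparison, those with an unadjusted p under 0.05 between null and WT, the most abundant member of each family per kb, the lowest p of the other comparisons and called genes of both pathway lists; further genes are named as partners or for the library pattern. The members and lists were chosen with earlier results of these data known. The alternatives were DESeq2 1.42.0, limma-voom (limma 3.58.1), RLE scaling, no filter on low counts, and a similar filter (10 or more counts in 3 of 6 libraries). Further ones were a fit of all 9 libraries, a replicate block, no fold threshold and leaving out each embryo. A covariate of endothelial marker level, and leaving out WT 1, WT 2 and Null 3 together, were chosen after seeing the data.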

Additional observations from a re-analysis of the deposited data

How the results depend on the processing

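Between null and WT, members called higher numbered 2 with DESeq2, 2 with no filter on low counts, 2 with all 9 libraries in 1 fit, and 0 with the endothelial covariate, against 1 in the report, and members called lower numbered 5 with no filter, against 3. Leaving out an embryo gave 0 to 2 higher and 0 to 6 lower, the lowest without WT 2 and the highest without Null 3. Between heterozygote and WT, members called lower numbered 5 with DESeq2, 7 with no filter, and 0 with limma-voom, RLE scaling, all 9 libraries, the endothelial covariate or WT 1, WT 2 and Null 3 left out, against 1, and 0 to 6 with an embryo left out, 6 without WT 3. Between null and heterozygote, members called higher numbered 1 with DESeq2 and 1 with no filter, against 0, and members called lower numbered 2 with DESeq2, no filter, all 9 libraries, the endothelial covariate or the 3 libraries left out, against 1, and 0 to 2 with an embryo left out.

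The replicate numbers did not pair the libraries (same-numbered correlations of -0.284 to 0.202), and with the replicate block members called between null and WT were 0 higher and 2 lower (Epha6 and Sema6d), 2 lower between heterozygote and WT, and 1 lower between null and heterozygote. Of 135 fits under alternatives of the 9 results called for single genes, 54 lost the call. Of 195 such fits of results not called, 11 gained a call and 1 reversed, which was Ntn1 at -0.006 without WT 1, WT 2 and Null 3. Calls over all genes ranged from 68 to 609 between null and WT, 0 to 684 between heterozygote and WT, and 12 to 366 between null and heterozygote, against 293, 26 and 105. The share of higher calls among all genes moved by under 10 percentage points with RLE scaling, but between null and WT it went from 53.9% to 38.4% without WT 1, WT 2 and Null 3, between heterozygote and WT it went from 34.6% to between 9.31% (without WT 3, 47 higher and 458 lower) and 66.7% (without WT 2, where 3 genes were called in all), and between null and heterozygote from 47.6% to between 36.4% (without Het 2) and 62% (no filter). The causes were not tested.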

Other observations

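Outside the members, Epha8 had 37 counts, Ntn5 18 and Robo3 10 over all 9 libraries. Between null and WT, the partner gene Chl1, an adhesion molecule related to L1cam, was 1.19 higher on the log2 scale (adjusted p = 0.137 in edgeR), and Ntng2, the other netrin-G gene, was 0.41 higher (adjusted p = 0.111), against -1.10 for Ntng1.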
